A study of Mus musculus with 12 samples.

Results

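The mature microRNAs mmu-miR-193a-3p, mmu-miR-193a-5p, mmu-miR-193b-3p and mmu-miR-365-3p (written below without the mouse prefix) were followed in the gastrocnemius, a large muscle of the calf, in young and aged mice. They come from a pair of related gene clusters and were chosen by name. The cluster of miR-193b is known for steering cultured cells between the brown fat and the muscle fate. They are 4 of the 1900 mature miRNAs in the table. All animals were untreated male C57BL/6 mice. The young group was 6 months old and the aged group 24 months old, with 6 small RNA libraries in each group, 1 per animal. Levels are given as FPKM, in which reads are scaled by mature length and by the library's mapped reads.

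A miRNA guides a repressor complex to messenger RNAs through its seed, the bases near its 5′ end. The miR-193b and miR-365 hairpins lie next to each other and are induced while brown fat cells differentiate. In culture, forced miR-193b pushes myoblasts toward the brown fat program, with the co-repressor Runx1t1 among its targets, although mice without this cluster still form brown fat. The miR-193 3p strands also repress the survival factor Mcl1.

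The sequences are shown first because they decide which of these miRNAs share a seed and which can be told apart by their reads. All 4 miRNAs were matched by name in RefSeq (GRCm38.p6, the assembly of mm10). In the mature sequences the capitals mark the seed, bases 2 to 8 from the 5′ end.
miR-193a-3p: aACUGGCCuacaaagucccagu
miR-193b-3p: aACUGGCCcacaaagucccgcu
miR-193a-5p: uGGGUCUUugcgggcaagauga
miR-365-3p: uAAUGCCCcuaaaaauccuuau

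The 3p strands of miR-193a and miR-193b had the same seed and were identical at 19 of 22 positions. They differed by U9C, A20G and G21C, written as the base of miR-193a-3p, the position counted from 1 at the 5′ end, and the base of miR-193b-3p. Among the 1603 miRNAs of the table with a RefSeq sequence, no other carried their seed. The seeds of miR-193a-5p and of miR-365-3p were each found in 1 miRNA of the table.

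The hairpins form 2 clusters, each with a miR-193 and a miR-365 hairpin on the plus strand. Mir193a (chr11:79711969-79712034) is followed by Mir365-2 (chr11:79726400-79726511) after 14365 bases. Mir193b (chr16:13449523-13449601) is followed by Mir365-1 (chr16:13453840-13453926) after 4238 bases. In GENCODE M21 the chromosome 11 hairpins overlapped no other gene, and the nearest coding gene to Mir193a was Rab11fip4, 13945 bases away at lower coordinates. Both chromosome 16 hairpins lay in an intron of Gm15738, a non-coding gene on the minus strand. They also lay within the spans of the RefSeq non-coding genes Gm32817 and Gm53058. The hairpins are printed to show where each strand sits, with the 5p and then the 3p strand in capitals.
Mir193a: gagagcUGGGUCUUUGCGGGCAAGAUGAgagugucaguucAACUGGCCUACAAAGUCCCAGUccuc
Mir193b: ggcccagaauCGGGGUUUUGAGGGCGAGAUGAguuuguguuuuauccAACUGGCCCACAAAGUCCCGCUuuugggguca
Mir365-1: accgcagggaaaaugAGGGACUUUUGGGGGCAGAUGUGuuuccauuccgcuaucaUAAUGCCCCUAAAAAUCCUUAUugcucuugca
Mir365-2: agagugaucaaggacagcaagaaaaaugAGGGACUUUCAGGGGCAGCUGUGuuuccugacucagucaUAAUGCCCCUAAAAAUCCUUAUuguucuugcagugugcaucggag

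The 3p strand is the same in both miR-365 hairpins, so a miR-365-3p read cannot be assigned to a chromosome. The 5p strands differ, and miR-365-1-5p and miR-365-2-5p had separate entries in the table.

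Because the lowest values of a library come in whole-read steps, the reads behind each value could be recovered. The 6 young libraries held an estimated 198163 to 6240679 miRNA reads and the 6 aged ones 122920 to 7518140, and depth moved with age: 5 of 6 young libraries held 198163 to 550092 reads and 5 of 6 aged libraries 1245005 to 7518140. A single read of a 22-nucleotide miRNA was worth 5.85 FPKM in the deepest library, aged replicate 3, and 378 FPKM in the shallowest, aged replicate 5. The 6 listed miRNAs of skeletal muscle were all read, 4 of them in every library, and summed to 4594300 to 7378810 FPKM in young and 4497090 to 5333860 FPKM in aged muscle. Summed levels of lists for other cells overlapped between the ages: 5828 to 10486 FPKM in young and 3022 to 10507 in aged muscle for 3 miRNAs of red blood cells, and 8449 to 19468 and 11136 to 24904 FPKM for 4 of white blood cells. For 2 miRNAs of endothelium the young sums were 307743 to 455685 FPKM and the aged ones 336491 to 382329 FPKM. For 5 of fibroblasts they were 33854 to 51570 and 33362 to 57605 FPKM. For 2 miRNAs of smooth muscle the sums were 3896910 to 5861640 FPKM in young and 4795220 to 6106710 FPKM in aged muscle. Of these other lists, none had a miRNA called by limma and none had one at 0 in every library. At an unadjusted limma p under 0.05, 2 of their miRNAs were lower in aged muscle, as were 7.26% of all tested miRNAs. For miR-144-3p of red blood cells, at 1717 ± 367 FPKM in young and 1039 ± 375 in aged muscle (SD, n = 6), the log2 change was -0.77 (limma adjusted p = 0.189). For miR-145a-5p of smooth muscle, at 12828 ± 2461 and 9403 ± 758 FPKM, it was -0.43 (limma adjusted p = 0.0975). The other listed miRNAs of these 2 kinds were at -0.34 for miR-451a, 0.14 for miR-144-5p and 0.17 for miR-143-3p. The part of these miRNAs in the results below was not tested. In bulk tissue, fewer cells of a type and less RNA per cell cannot be told apart.

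In young muscle the mean levels were 8846 ± 2654 FPKM for miR-365-3p (SD, n = 6), 6854 ± 585 for miR-193b-3p, 2648 ± 1128 for miR-193a-3p and 380 ± 176 for miR-193a-5p. In aged muscle the order was the same, with 7008 ± 679 FPKM for miR-365-3p (SD, n = 6), 6518 ± 671 for miR-193b-3p, 1381 ± 477 for miR-193a-3p and 136 ± 112 for miR-193a-5p. The first step in this order was within the spread, since miR-193b-3p was above miR-365-3p in 4 of 12 libraries. The log2 difference of miR-193b-3p from miR-365-3p was -0.31 ± 0.43 in young and -0.10 ± 0.25 in aged muscle (SD, n = 6). The steps from miR-193b-3p down to miR-193a-3p and from miR-193a-3p down to miR-193a-5p held in 12 of 12 libraries. Among all miRNAs of a library, miR-365-3p ranked from 73 to 94, miR-193b-3p from 85 to 106, miR-193a-3p from 113 to 160, and miR-193a-5p, where it was read, from 197 to 284.

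**Figure D1:**
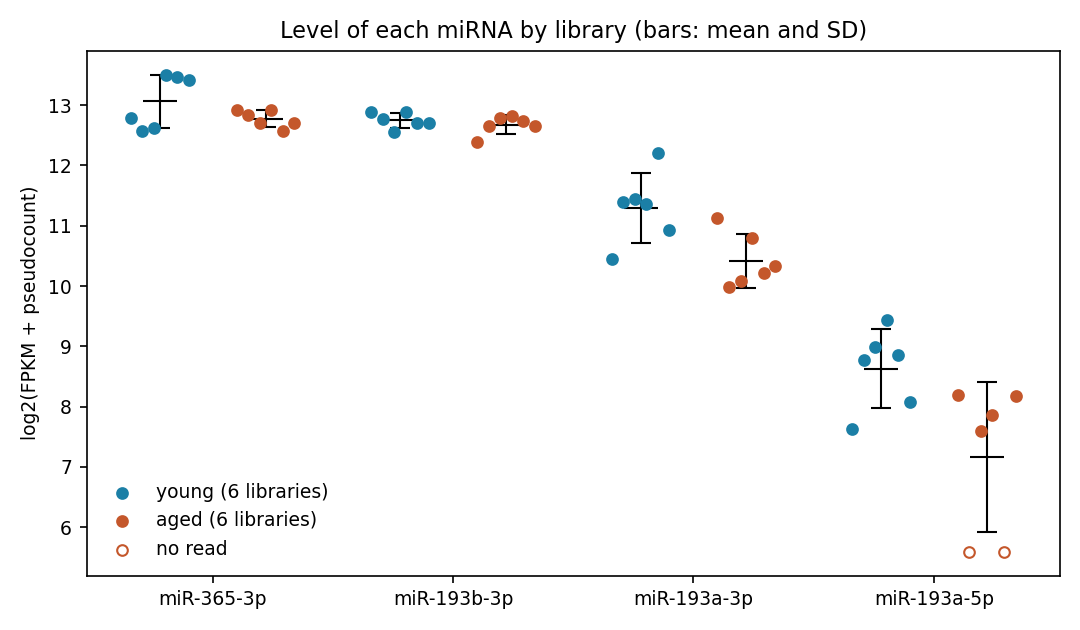
Level of each miRNA in each of the 12 libraries, as log2(FPKM + 48.2), by age, with open circles for libraries without a read and bars for the mean and SD of 6 libraries. The miR-193b-3p points lie close together from 12.4 to 12.9, whereas the miR-193a-3p points run from 9.98 to 12.2, with the aged libraries lower on average.

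The ages were compared on log2(FPKM + 48.2) with limma, a linear model fitted to all 482 miRNAs above 0 in at least 5 libraries, with Benjamini-Hochberg adjustment over all of them. All 4 miRNAs passed this filter. With limma, 0 of the 4 had an adjusted p under 0.05, the threshold used throughout, where 2.90% of all tested miRNAs passed it and 2.28% passed it as lower in aged muscle. Some miRNAs share the same reads, and with these counted once limma called 6 of 462 miRNAs. At an unadjusted p under 0.05 there were 2 of the 4, both lower in aged muscle, against 7.26% of all tested miRNAs that were lower at this level. Limma voom on the recovered reads called 0 of the 4 and 14 of all 482. An exact permutation test per miRNA called 0 of all 482, so its 0 of the 4 carries no weight. In the exact test 2 of the 4 had an unadjusted p under 0.05, as had 66 of all 482. The 4 log2 changes were below 0, in the direction of 44.6% of all tested changes, and their median was -0.58 beside 0.07 for all tested miRNAs. These signs held under all 26 alternatives run (25 for miR-193a-5p), of which voom moved the median of all tested changes by -0.17. The p-values measure the spread between these 12 libraries.

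**Figure D2:**
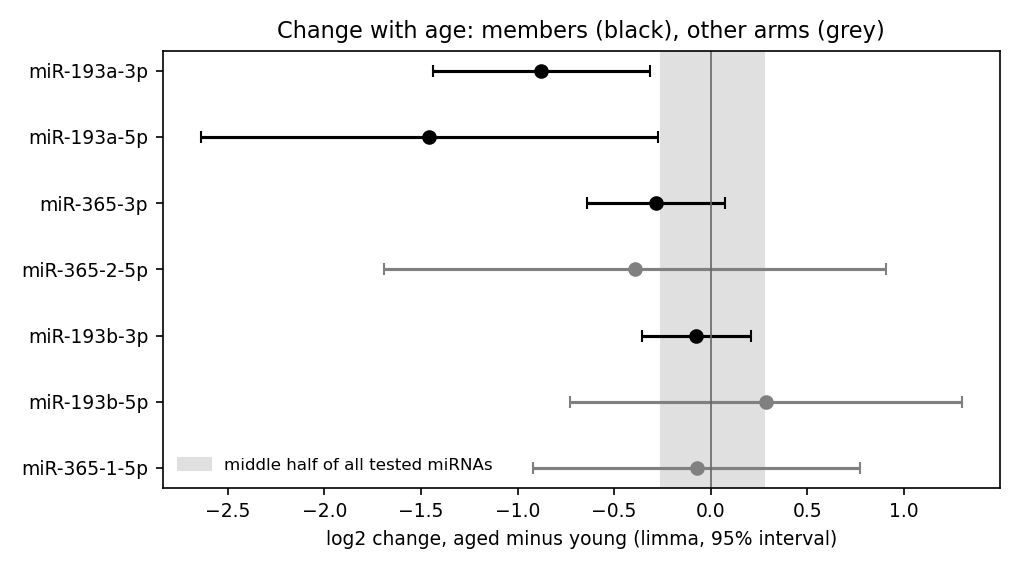
Change with age in log2(FPKM + 48.2), aged minus young, with the 95% interval from limma, for the 4 miRNAs in black and the 3 other strands of the same hairpins in grey. The shaded band is the range from the lower to the upper quartile of all 482 tested miRNAs, -0.26 to 0.28, and the intervals of miR-193a-3p and miR-193a-5p lie below 0 while the other intervals hold 0.

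mmu-miR-193a-3p, the major strand of the Mir193a hairpin, had the smallest p-value of the 4. Its lowest, median and highest levels were 1342, 2611 and 4673 FPKM in young and 962, 1185 and 2180 FPKM in aged muscle. All 6 aged libraries lay below the young median and 4 lay below the lowest young library, but the groups overlapped, as they did for each of the 4 miRNAs. Groups did not overlap for 2.70% of all tested miRNAs. The log2 change was -0.88 (SE 0.27, 95% interval -1.44 to -0.32), with an unadjusted limma p of 0.00354 and an adjusted p of 0.0947. The study picked this miRNA out on these same libraries, so its direction here is not independent evidence.

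The call for miR-193a-3p depended on the fit. With median-of-ratios scaling of the libraries the log2 change was -0.90 (limma adjusted p = 0.0435), and without young replicate 1, the lowest young library, it was -1.05 (limma adjusted p = 0.0400). With depth as a covariate it was -0.81 (limma adjusted p = 0.168). Over all alternatives the adjusted p ran from 0.0400 to 0.269. The reads behind miR-193a-3p were few in most libraries, from 3 in aged replicate 5 to 274 in young replicate 6. In the deepest library of each age it stood at 1911 FPKM in young replicate 6 (exact 95% Poisson interval 1691 to 2151) and at 1038 FPKM in aged replicate 3 (891 to 1203). These intervals cover counting error only, since reads amplified by PCR without molecular identifiers are not independent molecules.

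mmu-miR-193a-5p, the minor strand of the same hairpin, was the least abundant of the 4. Its lowest, median and highest levels were 149, 403 and 644 FPKM in young and 0, 165 and 246 FPKM in aged muscle. It was read in 6 of 6 young and in 4 of 6 aged libraries, and all 6 aged libraries lay below the young median, with overlapping groups. The log2 change was -1.46 (SE 0.57, 95% interval -2.64 to -0.27), with an unadjusted limma p of 0.0179 and an adjusted p of 0.215.

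Few reads stood behind miR-193a-5p, 48 in all young and 46 in all aged libraries, of which young replicate 6 gave 32 and aged replicate 3 gave 25. With a limit of 3 reads for a count of 0, at a confidence of about 95%, aged replicate 5, which had no read of it, could hold up to 1133 FPKM, above every young library. Under the same limit aged replicate 2, also without a read, could hold up to 99.7 FPKM, below the lowest young library. The size of the change depended on how these zeros were treated: it was -3.32 with a pseudocount of 1 FPKM, -0.47 with one of 482 FPKM, and -1.14 without either of the libraries lacking a read.

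**Figure D3:**
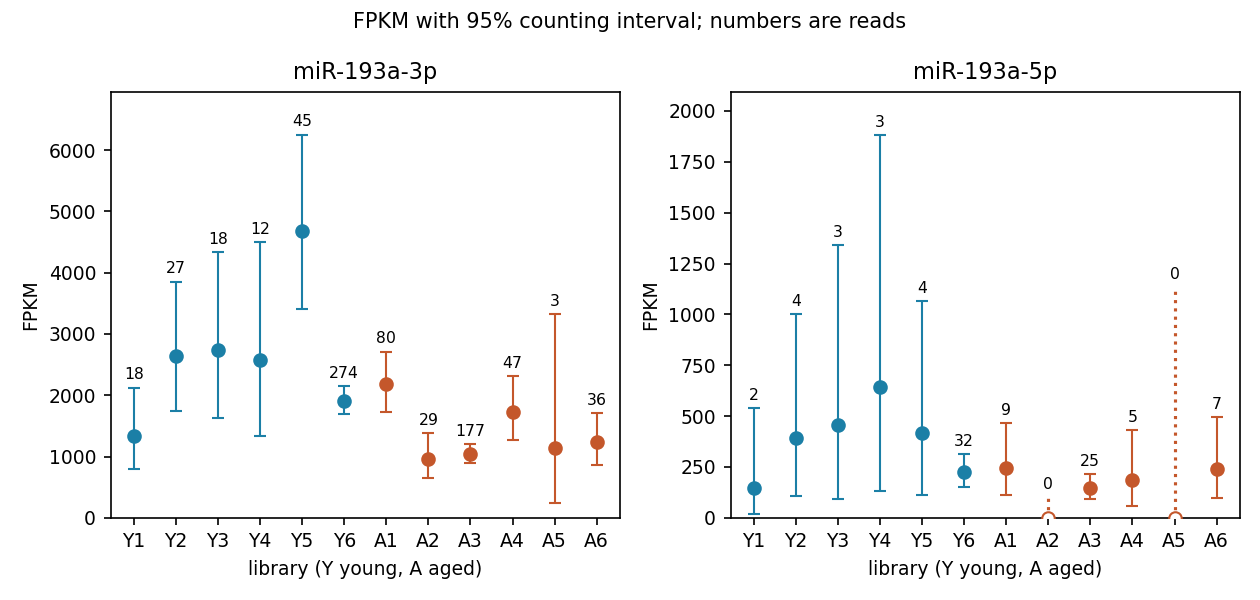
FPKM of miR-193a-3p and miR-193a-5p in each library, young (Y) and aged (A), with exact 95% Poisson intervals, dotted lines up to 3 reads where there was no read, and the number of reads printed at each point. The intervals are narrow only in Y6 and A3, the deepest libraries, and the 2 aged libraries without a miR-193a-5p read are A2 and A5.

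mmu-miR-193b-3p, which shares its seed with miR-193a-3p, kept close to 1 level. Its lowest, median and highest levels were 5955, 6795 and 7486 FPKM in young and 5293, 6611 and 7181 FPKM in aged muscle. The groups overlapped over most of their range. The log2 change was -0.07 (SE 0.14, 95% interval -0.36 to 0.21), with a limma adjusted p of 0.877, so that the interval leaves out a change of 1 log2 unit in either direction.

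The spread of miR-193b-3p between libraries of the same age was small. Its within-group SD was 0.141 on the log2 scale, rank 7 from the lowest among 482 tested miRNAs and the lowest of the 47 whose mean level was within 1 log2 unit of its own, where the median SD was 0.296. The SD between libraries was 0.124 in young and 0.156 in aged muscle, no larger than the 0.182 and 0.164 that counting alone gives at these read numbers. It was read 18 to 1193 times in each library.

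**Figure D4:**
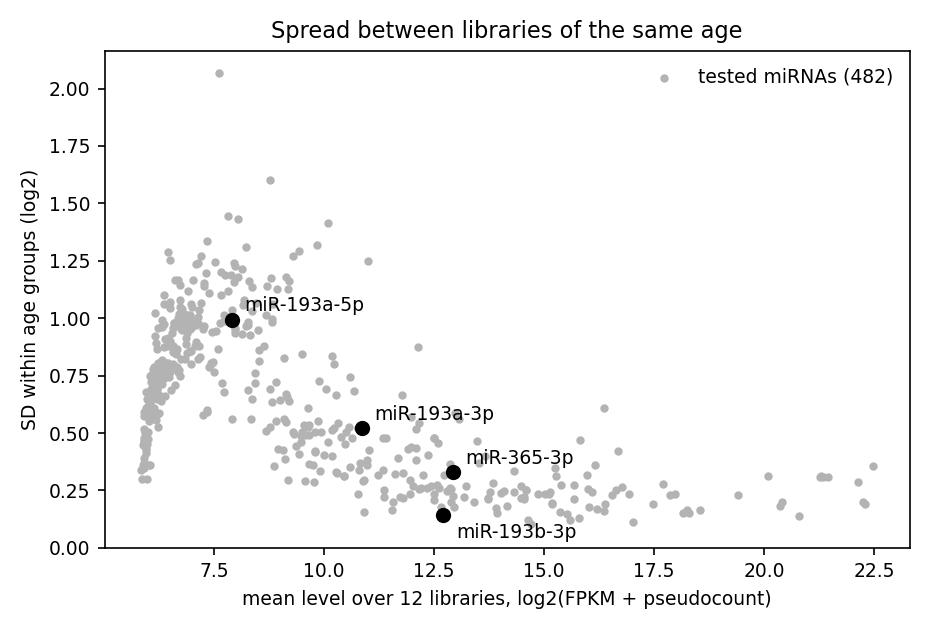
SD within age groups against mean level over 12 libraries, both in log2(FPKM + 48.2), for the 482 tested miRNAs in grey with the 4 miRNAs marked. miR-193b-3p lies at the lower edge of the cloud at an SD of 0.141, and miR-365-3p at nearly the same level has an SD of 0.330.

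mmu-miR-365-3p, known to repress the survival factor Bcl2 and cyclin D1, was the most abundant of the 4. Its lowest, median and highest levels were 6050, 8987 and 11554 FPKM in young and 6041, 6981 and 7734 FPKM in aged muscle. The young libraries lay in a lower set of 3, at 6050 to 7033 FPKM, and an upper set of 3, at 10941 to 11554 FPKM, and the aged libraries, all below the upper set, ran from 6041 to 7734 FPKM. The log2 change was -0.28 (SE 0.17, 95% interval -0.64 to 0.07), with a limma adjusted p of 0.494. The young SD of 0.445 was above the 0.166 that counting alone gives, whereas the aged SD of 0.141 was below its 0.168. The upper set held young replicates 4, 5 and 6, with an estimated 198163, 403156 and 6240679 reads, and the part of depth in it was not tested.

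The 2 genomic copies of miR-365-3p had a row each, and the table did not tie either row to a chromosome. The rows were equal in 1 library and differed in 11, by a median log2 difference of 0.16 and at most 0.95. Over all libraries the first row held 2036 reads and the second 1950, so that the share of the first was 51.1% (95% Clopper-Pearson interval 49.5 to 52.6). The interval of the share held 50% in 10 of 12 libraries, the exceptions being young replicate 4 at 35.2% (22.7 to 49.4) and young replicate 6 at 53.0% (50.5 to 55.5). Because the strand is the same in both hairpins, this split does not show which copy a read came from. The intervals cover counting only. Counting 1 row only, the higher in each library, gave a log2 change of -0.39 (limma adjusted p = 0.381). This choice raises most the libraries whose rows differ most. The log2 differences were 0.95, 0.88 and 0.49 in young replicates 3, 4 and 5 and 0.73 in aged replicate 5. The part of this choice in the change was not tested.

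**Figure D5:**
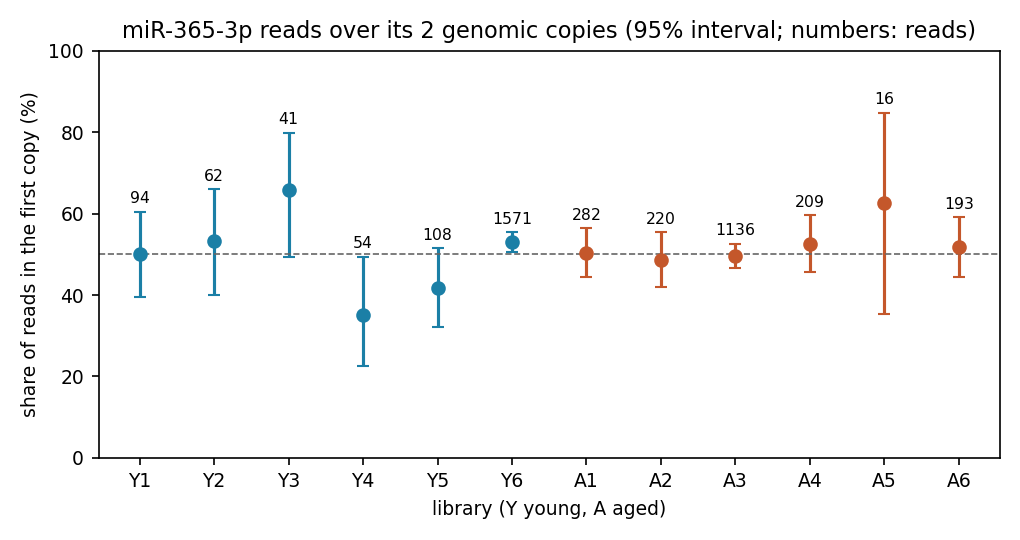
Share of miR-365-3p reads in the first of its 2 rows in each library, young (Y) and aged (A), with 95% Clopper-Pearson intervals and the number of reads. The shares lie around the dashed line at 50%, from 35.2% in Y4 to 65.9% in Y3, and the widest intervals belong to the libraries with the fewest reads.

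The other strands of the same hairpins were rare. Their mature sequences are printed because only these 5p strands tell the miR-365 hairpins apart, again with the seed in capitals.
miR-193b-5p: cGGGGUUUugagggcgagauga
miR-365-1-5p: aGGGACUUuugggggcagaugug
miR-365-2-5p: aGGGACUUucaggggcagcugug

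The miR-365 5p strands shared their seed and differed by U10C, G11A and A19C, from miR-365-1-5p to miR-365-2-5p, whereas the miR-193a and miR-193b 5p strands were identical at 17 of 22 positions and had different seeds. For miR-193b-5p there were 9 young and 26 aged reads, and the log2 change was 0.29 (limma adjusted p = 0.866). For miR-365-1-5p the 7 young and 12 aged reads gave -0.07 (limma adjusted p = 0.971). The 37 young and 44 aged reads of miR-365-2-5p gave -0.39 (limma adjusted p = 0.857). None of these 3 strands passed the test, and each was unread in at least 1 library of each age.

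The reads of each hairpin came mostly from its 3p strand, by 89.1% for Mir193a (95% Clopper-Pearson interval 86.8 to 91.1), 98.9% for Mir193b (98.5 to 99.3) and 97.6% for both miR-365 hairpins (97.0 to 98.0). For Mir193a the share was 89.1% in young (85.9 to 91.9) and 89.0% in aged muscle (85.6 to 91.8). Of the 100 reads of the miR-365 5p strands, 81 came from Mir365-2, the neighbour of Mir193a, a share of 81.0% (71.9 to 88.2). It was 84.1% in young (69.9 to 93.4) and 78.6% in aged muscle (65.6 to 88.4). Pooled reads are dominated by young replicate 6 and aged replicate 3, the deepest libraries, which gave 29 and 32 of the 81 Mir365-2 reads. These intervals cover counting only and leave out the spread between libraries.

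Whether strands of a hairpin, seed partners or cluster neighbours moved apart was tested on 4 log2 ratios with two-sided exact permutation tests over the 12 libraries, where the smallest p possible is 0.00216. The ratio of miR-193a-3p to miR-193b-3p, the seed partners, was lowest, median and highest at -2.44, -1.45 and -0.51 in young and at -2.69, -2.43 and -1.26 in aged muscle. It was below the young median in 5 of 6 aged libraries, and differed by -0.80 (SE 0.35; exact p = 0.0498, adjusted p = 0.160 over the 4 ratios). As a share of their summed FPKM, miR-193a-3p made up 27.3% ± 8.78 in young and 17.5% ± 6.21 in aged muscle (SD, n = 6). After adjustment the difference between the seed partners did not pass.

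The ratio of miR-193a-3p to miR-365-3p differed by -0.59 (SE 0.30; exact p = 0.0801, adjusted p = 0.160) and was below the young median in 6 of 6 aged libraries. The ratio of miR-193b-3p to miR-365-3p differed by 0.21 (SE 0.20, exact p = 0.346, adjusted p = 0.346). Since the miR-365-3p strand comes from both clusters, neither of these ratios is of 1 cluster alone. The ratio of miR-193a-5p to miR-193a-3p, the strands of 1 hairpin, differed by -0.58 (SE 0.46; exact p = 0.258, adjusted p = 0.343), and by 0.24 with a pseudocount of 482 FPKM. None of the 4 ratios passed at an adjusted p under 0.05, and 1 of them did at an unadjusted one.

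The miRNAs most like each of these over the 12 libraries were sought among the 216 miRNAs above 0 in every library, by Pearson's r of the log2 levels, as a description in which age, depth and library preparation are shared. For miR-193a-3p they were miR-30b-5p (r = 0.82, Spearman's rho = 0.77), miR-30c-5p (r = 0.81, rho = 0.71) and miR-434-5p (r = 0.74, rho = 0.76). Within the aged libraries alone r was 0.70 and 0.81 for the miR-30 pair and -0.15 for miR-434-5p, and within the young it was 0.76, 0.66 and 0.74. Its r was 0.77 with miR-193a-5p, from the same hairpin, with 0.72 within the young and 0.64 within the aged libraries. With miR-193b-3p, its seed partner, r was -0.14, with -0.41 within the young and -0.55 within the aged libraries. For miR-193a-5p they were miR-872-3p (r = 0.80, rho = 0.87), miR-148a-3p (r = 0.77, rho = 0.71) and miR-28a-3p (r = 0.76, rho = 0.65). In the same order r was 0.73, 0.36 and 0.56 within the young and 0.62, 0.80 and 0.84 within the aged libraries. In every r of miR-193a-5p the 2 aged libraries without a read of it stand at the pseudocount.

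For miR-193b-3p the highest values were lower, with miR-345-5p (r = 0.69, rho = 0.60), let-7b-3p (r = 0.44, rho = 0.51) and miR-101b-3p (r = 0.41, rho = 0.48). In the same order r was 0.71, 0.69 and 0.08 within the young and 0.63, 0.20 and 0.70 within the aged libraries. The spread of miR-193b-3p was no larger than counting alone gives, which limits any r with it. The strand of miR-365-3p comes from both clusters. Between miR-193b-3p and miR-365-3p r was 0.17 (rho = 0.19), with 0.24 within the young and -0.37 within the aged libraries. Between miR-193a-3p and miR-365-3p r was 0.51 (rho = 0.28), with 0.29 within the young and 0.63 within the aged libraries. For miR-365-3p they were miR-125b-2-3p (r = 0.86, rho = 0.64), miR-664-3p (r = 0.86, rho = 0.83) and miR-133a-3p (r = 0.83, rho = 0.74), the last a muscle-specific miRNA. Within the young libraries r of miR-365-3p with miR-133a-3p was 0.83 and within the aged libraries 0.47.

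Other miRNAs of the fat and muscle fates were counted beside them. Of 12 miRNAs known to favour brown or beige fat, limma called 0, with 3 at an unadjusted p under 0.05, which 12.9% of all tested miRNAs reached. These were miR-203-3p, higher by a log2 change of 0.72, and miR-30b-5p and miR-30c-5p at -0.28 and -0.30. Voom also called 0 of the 12, and 14 of all 482. The exact permutation test, which called 0 of all 482, also had 3 at an unadjusted p under 0.05. The median log2 change of the 12 was 0.09, near the 0.07 of all tested miRNAs.

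Of 8 miRNAs known to restrain brown fat, limma called 0. The exact permutation test had 2 of the 8 at an unadjusted p under 0.05, as had 66 of all 482. Voom had 1 of the 8 at this level, without a share over all tested miRNAs to set beside it. By limma 2 were higher at this level, against 5.60% of all tested miRNAs. They were miR-34a-5p, a target of p53, at a log2 change of 1.23 (limma adjusted p = 0.0626) and miR-155-5p at 0.71 (limma adjusted p = 0.344). The median of the 8 was 0.23. Of 7 myogenic miRNAs, limma and voom called 1. At an unadjusted p under 0.05 limma had 1, beside 12.9% of all tested miRNAs. The exact permutation test, which called 0 of all 482, also had 1 at an unadjusted p under 0.05. In each test it was miR-206-3p, a muscle-specific miRNA of regenerating and slow fibres, which rose by a log2 change of 1.54 (limma adjusted p = 0.0296). Limma called 0.622% of all tested miRNAs as higher, and the median of the 7 was 0.17. The call for miR-206-3p was lost under 14 of 26 alternatives, among them depth as a covariate (log2 change 1.54, limma adjusted p = 0.0636), and its change ran from 1.04 to 1.86 over all 26 with adjusted p from 0.00246 to 0.198. Levels of miR-206-3p were 812 ± 637 FPKM in young and 1981 ± 480 FPKM in aged muscle (SD, n = 6). The study listed miR-206-3p, miR-34a-5p, miR-155-5p and miR-203-3p as higher on these same libraries, so their direction here is not independent evidence. The lists overlap: miR-133a-3p and miR-133b-3p are in both the restraining and the myogenic list. All listed miRNAs of skeletal muscle are also in the myogenic list.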

How the data were processed

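Small RNA of gastrocnemius muscle was sequenced in 12 libraries, 6 young and 6 aged, grouped and numbered by the labels. Per the study's methods the authors mapped the reads to mm10 with BWA and computed FPKM for mature miRNAs of miRBase 20. The deposited values are log2 FPKM to 2 decimals, with 0 for no read. Strand use and the treatment of reads that fit several places are not given in the sources used here, and reads of like sequences may be counted in more than 1 row.

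The 2035 rows gave 1900 mature miRNAs after undoing the log and summing genomic copies. Reads were recovered from the lowest steps of each library and RefSeq mature lengths (22 nucleotides where none was matched), and of the 3213 values under 25 reads 99.4% were whole to within 0.15 read. A pseudocount of 48.2 FPKM, the median of the libraries' lowest nonzero values, was added. Limma 3.58.1 (R 4.3.3; lmFit, then eBayes with trend, two-sided, no covariate) was run on the 482 miRNAs read in 5 libraries or more, and miRNAs were called at a Benjamini-Hochberg adjusted p under 0.05. Scripts used Python 3.11.15, NumPy 2.4.6, pandas 2.3.3, SciPy 1.17.1 and matplotlib 3.10.9, and the fit was tested on simulated data. For low miRNAs the size of a fold change on log2(FPKM + 48.2) depends on the pseudocount and on zeros, and can be too small or too large. For miR-193a-5p it was -1.46, beside -3.32 with a pseudocount of 1 FPKM and -1.20 with voom.

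The members and gene lists were chosen with earlier results of these data known. Named were the 4 members, the other strands of their hairpins, listed miRNAs that passed an unadjusted or adjusted p under 0.05 and, for each member, the 3 miRNAs with the highest r. Alternatives covered pseudocount, filter, scaling, depth, zeros, genomic copies, miRNAs with the same reads, test, replicate block and leaving out each library. The study tested each miRNA without adjustment.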

Additional observations from a re-analysis of the deposited data

Results flagged for a closer look

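The level of miR-193b-3p in aged replicate 1 lay apart from its group, at 12.4 on the log2(FPKM + 48.2) scale with the other 5 aged libraries between 12.7 and 12.8. Its gap was 0.636 of the whole range of the group, above Dixon's 95% critical value for a group of that size. The library was not shallow, with 194 reads of miR-193b-3p, and without it the log2 change with age was -0.02 in place of -0.07. It was 1 of 16 groups checked, where chance flags about 0.8.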

How the results depend on the processing

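Changes of miR-193a-5p, miR-193b-3p and miR-365-3p kept their direction and stayed uncalled under every alternative run (25, 26 and 26). miR-193a-3p kept its direction under 26 and was called under 2: median-of-ratios scaling (-0.90) and leaving out young replicate 1. Leaving out each library in turn gave log2 changes from -1.05 to -0.69 for it. The 14 calls among all tested miRNAs became 6 with a pseudocount of 1 FPKM, 7 with no filter, 8 with a filter on the mean (which also removed miR-193a-5p), 6 with zeros kept as deposited values, 8 with depth as a covariate, 6 with miRNAs of the same reads counted once, and 0 with the exact permutation test, where 66 had an unadjusted p under 0.05 (62 with limma). The 3 higher calls became 0 with depth as a covariate, no filter, limma without trend, a pseudocount of 1 FPKM, zeros kept as deposited values and the exact permutation test, and without young replicate 3 or any of aged replicates 2 to 6. Leaving out each library in turn gave 6 to 15 calls. It was 6 without young replicate 3 or aged replicate 2, 3 or 4, 8 without young replicate 1 or aged replicate 5, and 9 without aged replicate 1 or 6. The ratio of miR-193a-5p to miR-193a-3p turned from -0.58 to 0.24 with a pseudocount of 482 FPKM, and the other 3 ratios kept their direction and call under 16 alternatives each. The cause of these differences was not tested, except that leaving out libraries or miRNAs reduces what is fitted. A pseudocount of 1 FPKM and zeros kept as deposited values each moved the median of all changes by 0.11, and voom by -0.17.

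Replicate numbers were not shown to pair the libraries, since deviations of same-numbered libraries correlated from -0.09 to 0.09. With the replicate block there were 14 calls, and the miR-193a-3p change had a limma adjusted p of 0.136. In the paired exact permutation test the ratio of miR-193a-3p to miR-193b-3p had p = 0.156, in place of 0.0498, and an adjusted p of 0.313. The block changed no call of the 4 miRNAs or their ratios.

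Depth limited miR-193a-5p and the rare 5p strands, where 3 reads, the limit for a count of 0, are worth 1133 FPKM in the shallowest library.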
